A study of Mus musculus with 8 samples.

Results

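The IFIT, MX and other antiviral effectors described here are 10 genes, *Ifit1*, *Ifit2*, *Ifit3*, *Ifit3b*, *Mx1*, *Mx2*, *Rsad2*, *Bst2*, *Ifitm3* and *Isg20*. They were picked by symbol, and each matched 1 row of the 54532 genes in the deposited expression table. All 8 libraries came from MICFs, cardiac fibroblasts of C57BL/6 mice isolated from the infarcted area on Day 6 after ligation of the left anterior descending artery, and the mice of the study were 8-week-old males. Every group carried the same doxycycline-inducible lentiviruses for MGT (*Mef2c*, *Gata4* and *Tbx5* in 1 construct), *Myocd*, *Sall4* and eGFP, which the labels call MGTMyoS overexpression, so no group lacked virus or reprogramming factors. The *in vivo* groups were eGFP+ cells sorted from infarcted hearts 7 and 14 days after transplantation (1 and 2 weeks), and the *in vitro* groups were eGFP+ cells kept in culture for the same times, with 2 libraries in each of the 4 groups.

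Transplanted mice received tacrolimus, methylprednisolone and mycophenolate mofetil every day and doxycycline in the drinking water. The reprogramming medium in the study's methods contained doxycycline, SB431542 and baricitinib, an inhibitor of the kinases JAK1 and JAK2 that act directly below interferon receptors. A difference between *in vivo* and *in vitro* libraries therefore holds the heart, the drugs given to the mice and the inhibitors in the medium together, and these cannot be told apart here. In these bulk samples, fewer cells of a type and less RNA per cell cannot be told apart either. The study kept a portion of the infected cells in culture alongside those transplanted, so heart and culture samples may share cell batches. The animals and wells behind each replicate are not stated, so p-values measure only the spread between these libraries.

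Cells that sense type I interferon through IFNAR1 and IFNAR2 activate JAK1 and TYK2, which phosphorylate STAT proteins. STAT2 and IRF9 are parts of ISGF3, a transcription factor that binds the interferon-stimulated response element (ISRE) of antiviral genes. The IFIT proteins bind foreign RNA and block its translation, and MX proteins are dynamin-like GTPases that trap viral nucleocapsids. *Rsad2* encodes viperin, which makes a nucleotide that stops viral RNA synthesis, *Bst2* encodes tetherin, which holds budding virions on the cell surface, *Ifitm3* encodes a membrane protein that blocks viral fusion, and *Isg20* encodes an RNA exonuclease. Most laboratory strains, C57BL/6 included, carry *Mx1* and *Mx2* alleles that give no working protein, although the transcripts can still be counted. The study itself names *Mx1*, *Ifit1*, *Ifit3* and *Isg20* from these same libraries, so their direction here is not independent evidence.

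The 4 *Ifit* genes lie in 1 cluster on the plus strand of chromosome 19 of mm10 (GRCm38), with their relatives *Ifit1bl1* and *Ifit1bl2* between *Ifit3* and *Ifit1*. *Ifit2* is at chr19:34550694-34576419, *Ifit3* at chr19:34583531-34588731, *Ifit3b* at chr19:34607970-34613401 and *Ifit1* at chr19:34640871-34650009. *Mx1* (chr16:97447035-97462907, minus strand) and *Mx2* (chr16:97535308-97560900, plus strand) share a stretch of chromosome 16, and *Mx2* is listed as a polymorphic pseudogene. *Ifitm3* (chr7:141009586-141010770, minus strand) and *Isg20* (chr7:78913424-78920396, plus strand) lie far apart on chromosome 7. *Rsad2* is at chr12:26442746-26456452 and *Bst2* at chr8:71534255-71537456, both on the minus strand. No member overlapped another gene of the table.

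RefSeq promoter windows of 300 bases on GRCm38.p6, 250 before the gene start and 50 from it on, were found for 8 of the 10 genes, and *Mx1* and *Mx2* had none in the table used. The core of the ISRE was searched on both strands as GAAA, any 2 bases and GAAA again, which reads TTTC, 2 bases and TTTC when it lies on the opposite strand. It occurred in a window of 6 of the 8 genes, compared with 3.99% of all 27025 genes with a window. *Ifit1*, *Ifit3*, *Ifit3b* and *Rsad2* held it on the opposite strand, with the first match 104, 156, 188 and 120 bases before the start. *Bst2* held overlapping matches that began 130 and 124 bases before the start, and *Ifitm3* held matches at bases 3 and 20 of the transcribed part. *Ifit2* and *Isg20* had no match in these windows. The core of the GAS element bound by STAT dimers, TTC, any 3 bases and GAA, occurred in windows of 4 of the 8 genes (*Ifit2*, *Isg20*, *Bst2* and *Ifitm3*), compared with 9.55% of all genes, and in *Bst2* and *Ifitm3* this match overlapped an ISRE match. A match describes the letters only. The stretches around the ISRE matches before the start are shown here because they let the promoters of 5 members be compared letter by letter. They are written 5′ to 3′ on the gene's strand with the matches in capitals.
Ifit1, chr19:34640760-34640838, plus strand: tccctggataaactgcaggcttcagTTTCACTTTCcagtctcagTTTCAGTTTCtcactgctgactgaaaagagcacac
Ifit3, chr19:34583348-34583441, plus strand: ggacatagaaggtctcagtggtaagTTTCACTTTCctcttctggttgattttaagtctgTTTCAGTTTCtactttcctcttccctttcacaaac
Ifit3b, chr19:34607744-34607837, plus strand: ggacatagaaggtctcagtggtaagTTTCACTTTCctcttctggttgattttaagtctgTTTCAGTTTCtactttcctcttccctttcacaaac
Rsad2, chr12:26456538-26456597, minus strand: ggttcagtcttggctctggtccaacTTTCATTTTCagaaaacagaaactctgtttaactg
Bst2, chr8:71537562-71537627, minus strand: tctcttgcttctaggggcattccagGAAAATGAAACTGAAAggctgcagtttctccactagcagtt
The printed *Ifit3* and *Ifit3b* stretches are the same in every base, and the longest run shared by the whole windows of these genes was 169 bases. Their transcripts are also close copies. In the GENCODE vM21 transcripts, 41.1% of the 75-base words of *Ifit3* occur in *Ifit3b* and 35.7% of those of *Ifit3b* occur in *Ifit3*, so how fragments were split between this pair is uncertain. For *Ifit1* the share found in another gene was 5.19% (all in *Ifit1bl2*), for *Mx1* and *Mx2* it was 1.71% and 2.01% (each in the other), and for the remaining members it was under 1%.

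Each library held between 12304242 and 14546904 fragments on genes. The deposited FPKM (fragments per kilobase of gene, scaled to the library) rest on a library size of 0.863 to 0.915 times this total for the heart samples and 1.09 to 1.15 times for the cultures, so these values already hold a scaling between libraries. The 10 fibroblast markers summed to between 11000 and 14010 FPKM *in vivo* and between 2410 and 3630 FPKM *in vitro*. This sum was weighted by matrix genes such as *Col1a1*, with 1-week means of 4420 FPKM *in vivo* and 857 FPKM *in vitro*. *Pdgfra* (20.85 against 19.99 FPKM) and *Tcf21* (43.5 against 34.9 FPKM) differed less at 1 week. In both *in vivo* libraries 8 of the 10 were higher at 1 week and 9 at 2 weeks, while *Thy1* was lower at each week. The 15 macrophage markers were present in every library and summed to between 2102 and 3341 FPKM *in vivo* and between 5180 and 6355 FPKM *in vitro*. The 8 cardiomyocyte markers summed to 16.3 to 48.0 FPKM *in vivo* and 166 to 1224 FPKM *in vitro*, and the 8 endothelial markers to 73.5 to 91.2 and 21.2 to 51.5 FPKM. Lymphocyte markers summed to at most 3.41 FPKM, and *Cd3d*, *Ms4a1* and *Ncr1* had 3 fragments or fewer in every library. Neutrophil markers (3.25 to 9.46 FPKM *in vivo*, 2.49 to 3.69 *in vitro*) and dendritic cell markers (4.36 to 5.55 and 4.39 to 6.003) were also low. The fibroblast label thus had its markers in all libraries, together with those of macrophages. The study itself reports that isolated MICFs were mostly fibroblasts, with macrophages and a small share of endothelial cells among them. The macrophage sum was weighted by 1 gene, *Lyz2*, which measured 975 to 1453 FPKM *in vivo* and 2921 to 4014 FPKM *in vitro*, and the list did not move as a whole. At 1 week 9 of its 15 genes were lower in both *in vivo* libraries and 2 were higher, and at 2 weeks 11 were lower and 3 higher. The 2 that were higher at 1 week were *Fcgr1* (21.7 and 14.1 FPKM against 3.04 and 2.56) and *Cx3cr1* (15.2 and 12.3 FPKM against 3.99 and 6.57). The part of the fibroblast, macrophage, endothelial and cardiomyocyte differences in the results that follow was not tested.

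**Figure D1:**
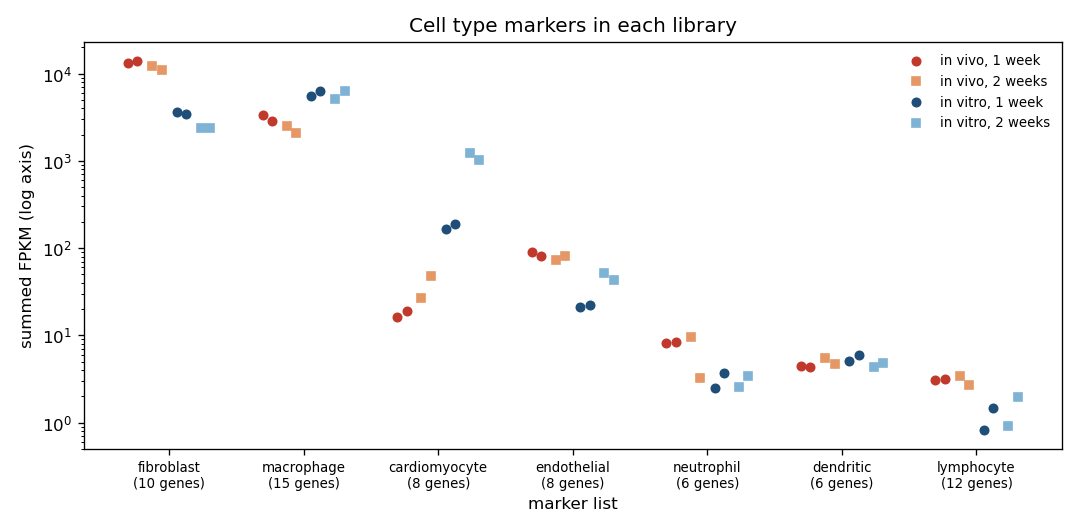
Summed FPKM of 7 marker lists (log axis) in each library, 1 point per library. The macrophage sum is higher in the 4 *in vitro* libraries (5180 to 6355) than in the 4 *in vivo* libraries (2102 to 3341), with *Lyz2* as its most abundant gene. The fibroblast sum, weighted by matrix genes, and the endothelial sum are higher *in vivo*.

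On the deposited FPKM, all 10 genes were higher in both *in vivo* libraries than in both *in vitro* libraries of the same week. For *Bst2* at 2 weeks this separation depended on the deposited scaling, as described below. Across all 15708 genes tested, 36.2% were separated in this direction at 1 week and 36.8% at 2 weeks. At 1 week 9 of the 10 were called higher *in vivo* by limma (Benjamini-Hochberg adjusted p under 0.01 and a log2 difference over 1), compared with 7.79% of all tested genes. At 2 weeks 8 of the 10 were called higher, compared with 9.02% of all tested genes. The median log2 difference of the 10 genes was 2.20 at 1 week and 1.87 at 2 weeks, while that of all tested genes was -0.01 and 0.00. *Mx1*, *Mx2* and *Rsad2* reached the expression filter (0.5 FPKM in 2 libraries) only through their *in vivo* libraries, so the number called among the 10 is a description.

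**Figure D2:**
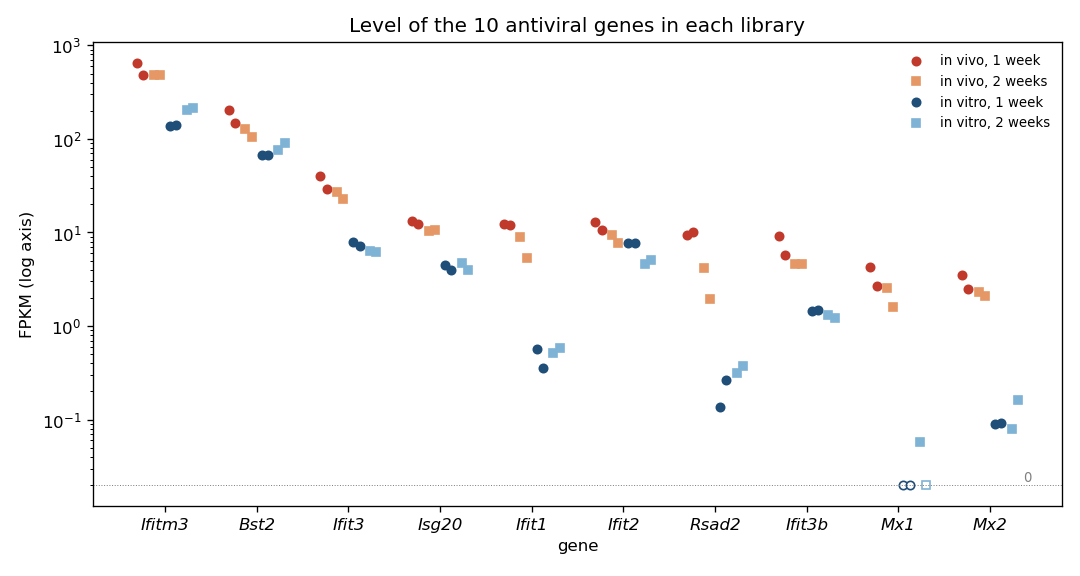
FPKM (log axis) of the 10 genes in each of the 8 libraries, 1 point per library, with open symbols on the dotted line for libraries at 0. *Mx1*, *Mx2*, *Rsad2* and *Ifit1* lie below 1 FPKM in all *in vitro* libraries, whereas *Ifitm3* and *Bst2* are well above the other genes in every library.

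*Mx1* was detected almost only in the heart. It stood at 4.24 and 2.66 FPKM *in vivo* at 1 week and at 2.57 and 1.603 FPKM at 2 weeks. In culture it was at 0 in 3 libraries and at 0.0573 FPKM, from 3 fragments, in 1 library of 2 weeks. Against a floor of 3 fragments per library, the heart level of *Mx1* was at least 66.0-fold higher after 1 week. After 2 weeks the bound was at least 36.1-fold, and the fitted log2 differences were 5.11 ± 0.41 (SE, adjusted p = 0.000108) and 4.09 ± 0.41 (adjusted p = 0.000238).

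*Mx2* followed at similar levels, with 3.47 and 2.46 FPKM *in vivo* at 1 week and 2.30 and 2.08 FPKM at 2 weeks. Its culture values were 0.0899 and 0.0926 FPKM at 1 week and 0.0800 and 0.163 FPKM at 2 weeks, from 4 to 8 fragments per library. The 4 libraries from hearts were thus all above the 4 from culture, by 3.98 ± 0.30 on the log2 scale at 1 week (adjusted p = 8.17e-05) and 3.40 ± 0.30 at 2 weeks (adjusted p = 0.000132).

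*Rsad2*, the viperin gene, had a fitted difference at 1 week close to that of *Mx1*, and these genes are not ordered by it. Its FPKM were 9.42 and 10.2 *in vivo* against 0.135 and 0.263 *in vitro*, and at 2 weeks 4.15 and 1.92 against 0.317 and 0.373. Both *in vivo* values at 2 weeks lay well below those of 1 week, and both *in vitro* values lay slightly above. The log2 difference was 5.08 ± 0.37 at 1 week (adjusted p = 7.10e-05) and 2.72 ± 0.37 at 2 weeks (adjusted p = 0.000970). Fitted on the libraries of 2 weeks alone, the latter had an adjusted p of 0.0172 and was no longer called, the highest value over its alternatives, whose lowest was 0.000138.

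*Ifit1* was the IFIT gene with the widest separation. It measured 12.41 and 11.99 FPKM *in vivo* at 1 week, 9.04 and 5.39 FPKM at 2 weeks, and between 0.353 and 0.581 FPKM in the 4 *in vitro* libraries (14 to 23 fragments). The mean was 26.7 times as high *in vivo* at 1 week and 13.1 times at 2 weeks, with log2 differences of 4.49 ± 0.27 (adjusted p = 3.33e-05) and 3.45 ± 0.27 (adjusted p = 8.17e-05).

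*Ifit3* and *Ifit3b* kept a clear level in culture. *Ifit3* measured 39.7 and 29.1 FPKM *in vivo* against 7.97 and 7.14 FPKM *in vitro* at 1 week, and 26.8 and 22.8 against 6.34 and 6.24 FPKM at 2 weeks. *Ifit3b* measured 9.18 and 5.80 against 1.46 and 1.47 FPKM at 1 week, and 4.56 and 4.62 against 1.30 and 1.21 FPKM at 2 weeks. The *Ifit3* level was 4.33 to 5.88 times that of *Ifit3b* in every library, with the reservation on shared fragments above. Their log2 differences were 2.16 ± 0.15 and 2.24 ± 0.20 at 1 week and 1.96 ± 0.15 and 1.79 ± 0.20 at 2 weeks, and both genes were called at both weeks.

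*Ifit2* differed least among the IFIT genes. It measured 13.1 and 10.5 FPKM *in vivo* against 7.74 and 7.76 FPKM *in vitro* at 1 week, and 9.29 and 7.65 against 4.66 and 5.13 FPKM at 2 weeks. The libraries did not overlap at either week, but the log2 difference was 0.59 ± 0.13 at 1 week (adjusted p = 0.0116) and 0.77 ± 0.13 at 2 weeks (adjusted p = 0.00294), under the fold threshold both times and, at 1 week, above the p threshold. In culture at 1 week the mean level of *Ifit2* was 16.9 times that of *Ifit1*, while *in vivo* at 1 week the means were 11.8 and 12.2 FPKM and the libraries overlapped.

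*Ifitm3* and *Bst2*, the membrane-bound effectors, were the most abundant members in all 8 libraries and together made up 88.2% to 94.6% of the summed FPKM of the 10 genes. *Ifitm3* measured 640 and 487 FPKM *in vivo* against 139 and 139 FPKM *in vitro* at 1 week, and 486 and 481 against 202 and 216 FPKM at 2 weeks. Its log2 difference was 2.01 ± 0.12 at 1 week (adjusted p = 3.36e-05) and 1.21 ± 0.12 at 2 weeks (adjusted p = 0.000252). At 2 weeks it passed the fold threshold only with the deposited scaling, since it was 0.88 without that scaling and 0.80 after quantile normalization.

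*Bst2* was called at 1 week and not at 2 weeks. It measured 205 and 147 FPKM *in vivo* against 68.0 and 66.9 FPKM *in vitro* at 1 week, and 128 and 105 against 76.1 and 90.6 FPKM at 2 weeks. The log2 difference was 1.37 ± 0.17 at 1 week (adjusted p = 0.000843) and 0.48 ± 0.17 at 2 weeks (adjusted p = 0.0513). The latter ran from 0.15 to 0.62 over the alternatives. At 2 weeks the second heart library held 1050 *Bst2* fragments of 12304242 on genes, and the second culture library 1112 of 12450326. Without the deposited scaling the heart and culture libraries of 2 weeks therefore overlapped. At 2 weeks the *Bst2* level was lower in the heart (66.1% of the 1-week mean) and higher in culture (124%), and neither difference between weeks was called.

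*Isg20* measured 13.3 and 12.2 FPKM *in vivo* against 4.47 and 3.92 FPKM *in vitro* at 1 week, and 10.3 and 10.6 against 4.66 and 3.99 FPKM at 2 weeks. Its libraries were close within each group, and the log2 difference was 1.58 ± 0.11 at 1 week (adjusted p = 5.32e-05) and 1.26 ± 0.11 at 2 weeks (adjusted p = 0.000115). Without the deposited scaling it was 0.93 at 2 weeks, under the fold threshold.

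**Figure D3:**
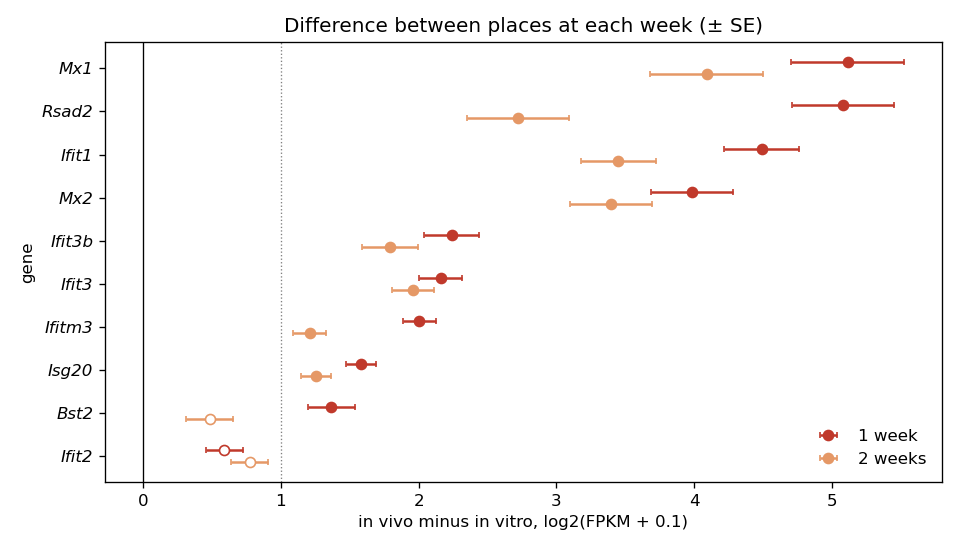
Fitted *in vivo* minus *in vitro* difference of each gene on the log2(FPKM + 0.1) scale at 1 and 2 weeks, with its SE. Filled points were called, the dotted line marks the fold threshold, and *Ifit2* at both weeks and *Bst2* at 2 weeks are the open points.

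By level per length (FPKM), *Ifitm3* and *Bst2* led the 10 genes in every group, and the order below them differed between heart and culture. *In vivo* at 1 week the order of the means was *Ifitm3* (564 FPKM), *Bst2* (176), *Ifit3* (34.4), *Isg20* (12.7), *Ifit1* (12.2), *Ifit2* (11.8), *Rsad2* (9.78), *Ifit3b* (7.49), *Mx1* (3.45) and *Mx2* (2.97). The libraries of *Isg20* and *Ifit1*, of *Ifit1* and *Ifit2*, and of *Mx1* and *Mx2* overlapped, so these neighbours are not ordered. *In vitro* at 1 week *Ifitm3* (139 FPKM) and *Bst2* (67.4) were followed by *Ifit2* (7.75) and *Ifit3* (7.55), which overlapped, and then by *Isg20* (4.197), *Ifit3b* (1.47), *Ifit1* (0.458), *Rsad2* (0.199), *Mx2* (0.0912) and *Mx1* (0). At 1 week *Ifit1* and *Rsad2* thus stood above *Ifit3b* in the heart and below it in culture. The place of *Ifit3b* carries the reservation above on fragments shared with *Ifit3*, so this order is uncertain.

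From 1 to 2 weeks in the heart, all 10 genes were lower in both later libraries than in both earlier ones, compared with 28.9% of all tested genes. No member was called at the threshold by limma (0.949% of all genes were called lower), while 7 had an unadjusted p under 0.05, compared with 15.3% of all tested genes that were lower at that p. With limma voom on the recovered fragments 1 member, *Rsad2*, was called lower, compared with 1.29% of all tested genes. The mean of *Rsad2* at 2 weeks was 31.0% of that at 1 week, a log2 difference of -1.75 ± 0.37 with an adjusted p of 0.0232 (0.000234 to 0.117 over the alternative settings and left-out libraries). The other 9 genes kept between 59.1% (*Ifit1*) and 85.8% (*Ifitm3*) of their 1-week mean.

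Most of the 10 genes ranked the *in vivo* libraries alike. The first 1-week library was the highest of all 8 for 9 of the 10 genes, with *Rsad2* as the exception. At 2 weeks the first replicate exceeded the second for 8 of the 10 genes. The shares of all tested genes with these patterns were not computed, so a shift of a whole library cannot be told apart. The macrophage marker sum of the same 4 libraries was 3341 and 2895 FPKM at 1 week and 2529 and 2102 FPKM at 2 weeks, so it was lower at 2 weeks as well, and its part in the lower levels at 2 weeks was not tested. Fibroblast markers summed to 13150 and 14010 FPKM at 1 week and 12390 and 11000 FPKM at 2 weeks, but they went in both directions. The means of *Col1a1* (4420 to 3011 FPKM), *Col1a2*, *Col3a1*, *Postn* and *Thy1* were lower at 2 weeks. Those of *Dcn* (498 to 902 FPKM), *Lum*, *Pdgfra*, *Tcf21* (43.5 to 65.1 FPKM) and *Vim* were higher.

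In culture the genes did not move as a group. *Rsad2*, *Bst2* and *Ifitm3* were higher in both 2-week libraries than in both 1-week libraries (34.8% of all tested genes were separated in this direction), and *Ifit2*, *Ifit3* and *Ifit3b* were lower in both (31.4% of all genes). None of the 10 was called by limma or by limma voom, compared with 3.81% of all tested genes called in either direction by limma. An unadjusted p under 0.05 was found for 2 of the 10 and for 38.2% of all tested genes. The 2 were *Ifit2*, with a log2 difference of -0.65 ± 0.13 (adjusted p = 0.0148), and *Ifitm3*, with 0.59 ± 0.12 (adjusted p = 0.0153).

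**Figure D4:**
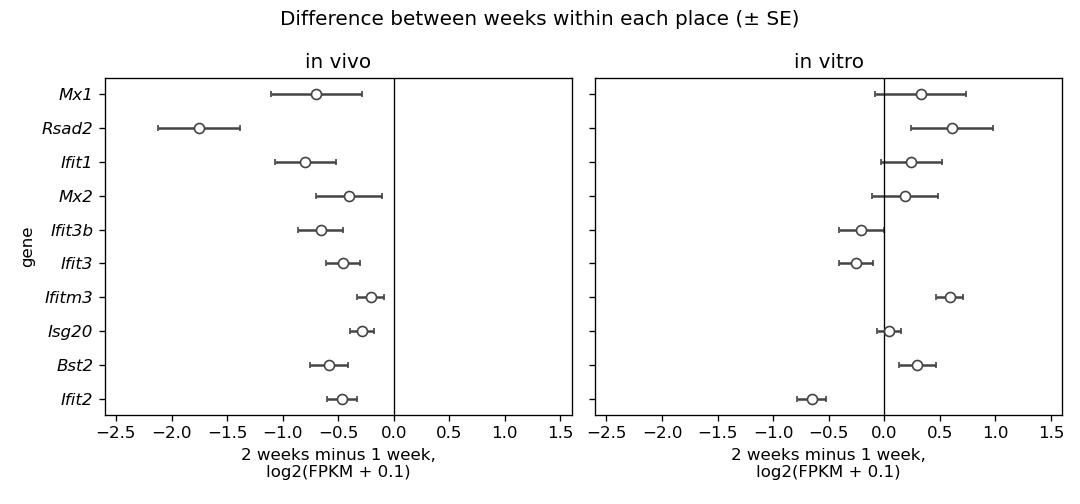
Difference between 2 weeks and 1 week of each gene on the log2(FPKM + 0.1) scale, with its SE, in the heart (left) and in culture (right). All 10 points lie below 0 *in vivo*, where *Rsad2* is lowest at -1.75, and they lie on both sides of 0 *in vitro*; no point was called.

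The difference between heart and culture was smaller at 2 weeks for 9 of the 10 genes, with *Ifit2* as the exception. The interaction contrast, which tests this change directly, called none of the 10 in limma or in limma voom, and 1.15% of all tested genes were called lower. An unadjusted p under 0.05 was found for 4 genes, *Rsad2*, *Ifitm3*, *Bst2* and *Ifit1*, all with a smaller difference at 2 weeks, compared with 14.9% of all tested genes that were lower at that p. The change was -2.36 ± 0.52 on the log2 scale for *Rsad2* (adjusted p = 0.0382), -0.80 ± 0.17 for *Ifitm3* (adjusted p = 0.0362), -0.88 ± 0.24 for *Bst2* (adjusted p = 0.0658) and -1.04 ± 0.39 for *Ifit1* (adjusted p = 0.141).

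Of 40 other antiviral effectors, 38 passed the filter. At 1 week 14 were called higher *in vivo* and 2 lower, with a median log2 difference of 0.73. Of all 15708 tested genes, 1224 (7.79%) were called higher and 796 lower at that week. At 2 weeks 11 effectors were called higher and 1 lower, with a median of 0.64. The calls over all tested genes were then 1417 higher (9.02%) and 1265 lower. Without the deposited scaling 6 effectors were called higher at 2 weeks (*Cmpk2*, *Ifi27l2a*, *Ifi44*, *Isg15*, *Rtp4* and *Xaf1*). The largest fitted differences among the calls at 1 week were those of *Ifi44*, *Rtp4* and *Ifi27l2a*, all interferon-stimulated genes. *Ifi44* measured 5.69 and 2.97 FPKM *in vivo* at 1 week and had at most 1 fragment in each culture library, so against the floor of 3 fragments per library it was at least 134-fold higher in the heart. *Rtp4* measured 17.7 and 9.44 FPKM *in vivo* against 0.427 and 0.597 FPKM *in vitro* (log2 difference 4.43 ± 0.37). *Ifi44*, *Rtp4*, *Cmpk2* and *Ddx60* reached the filter only with their *in vivo* libraries, so the count of effectors called is a description too. The log2 difference of *Ifi27l2a* was 4.18 ± 0.30. *Ifi27l2a* measured 311 and 152 FPKM *in vivo* and 12.8 and 11.1 FPKM *in vitro* at 1 week. The genes called lower *in vivo* were *Ch25h*, whose enzyme makes the antiviral oxysterol 25-hydroxycholesterol, and at 1 week only *Ifitm6*, a relative of *Ifitm3*. *Ch25h* measured 16.4 and 14.4 FPKM *in vivo* against 51.2 and 55.9 FPKM *in vitro* at 1 week, a log2 difference of -1.79 ± 0.09, and -3.23 ± 0.09 at 2 weeks. *Ch25h* was also the 1 effector called in the interaction contrast by limma (-1.44 ± 0.12, adjusted p = 0.00338), a call that was lost without the intensity trend (adjusted p = 0.0141) and with any 1 library left out (0.0102 to 0.0213). *Ch25h* and, at 1 week, *Ifitm6* thus went against the direction of the 10 members, and the number of such genes is a description.

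Of 31 interferon signalling genes, 20 passed the filter, and 5 were called higher *in vivo* at each week, with 0 lower at 1 week and 1 lower at 2 weeks. Of all 15708 tested genes, 7.79% were called higher and 796 genes lower at 1 week. At 2 weeks these were 9.02% and 1265 genes. The median log2 difference of the list was 0.25 at 1 week and 0.18 at 2 weeks. Without the deposited scaling 1 signalling gene was called lower at 1 week (*Pias1*) and 3 at 2 weeks (*Il10rb*, *Irf1* and *Ptpn6*). Over all tested genes 1558 and 2087 were then called lower. Among the ligands, *Ifnb1* (interferon beta) measured 0.456 and 3.58 FPKM *in vivo* at 1 week (4 and 35 fragments) and at most 0.242 FPKM (2 fragments) in the other 6 libraries, so it did not pass the filter. The library with the most *Ifnb1* was the second 1-week library, which was lower than the first for 9 of the 10 antiviral genes. This rests on few fragments in 2 libraries, and the relation of *Ifnb1* to the antiviral genes was not tested. The interferon alpha genes on the list, *Ifna1*, *Ifna2*, *Ifna4* and *Ifna5*, were at 0 in all libraries. The receptor genes were close between groups. *Ifnar1* measured 20.7 and 20.9 FPKM *in vivo* against 16.3 and 17.6 FPKM *in vitro* at 1 week, a log2 difference of 0.30 ± 0.06 (adjusted p = 0.00853, under the fold threshold). *Ifnar2* differed by 0.16 ± 0.08 at 1 week (adjusted p = 0.1396) and by -0.51 ± 0.08 at 2 weeks (adjusted p = 0.00156, also under the fold threshold).

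*Stat2* and *Irf9*, which encode parts of ISGF3, were higher in the heart. *Stat2* measured 15.87 and 10.98 FPKM *in vivo* against 2.12 and 2.71 FPKM *in vitro* at 1 week (log2 difference 2.41 ± 0.19) and differed by 1.91 ± 0.19 at 2 weeks. *Irf9* measured 13.6 and 8.74 FPKM against 2.11 and 2.35 FPKM at 1 week (2.24 ± 0.21) and differed by 1.86 ± 0.21 at 2 weeks. The largest differences of the list were those of *Irf7* (5.19 ± 0.35 at 1 week), the factor that amplifies interferon production, and *Usp18* (4.49 ± 0.35), a negative regulator that acts at IFNAR2, which reached the filter only with its *in vivo* libraries. *Irf1* was the gene called lower *in vivo* at 2 weeks (-1.14 ± 0.10), and it rose in culture from 27.1 and 29.8 FPKM at 1 week to 67.7 and 73.0 FPKM at 2 weeks (1.30 ± 0.10, adjusted p = 0.000506). It was also the 1 signalling gene called in the interaction contrast by limma (-1.64 ± 0.14, adjusted p = 0.00338), which was lost without the trend (adjusted p = 0.0141) and with 6 of the 8 libraries left out in turn (0.00666 to 0.0254 over all 8).

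**Figure D5:**
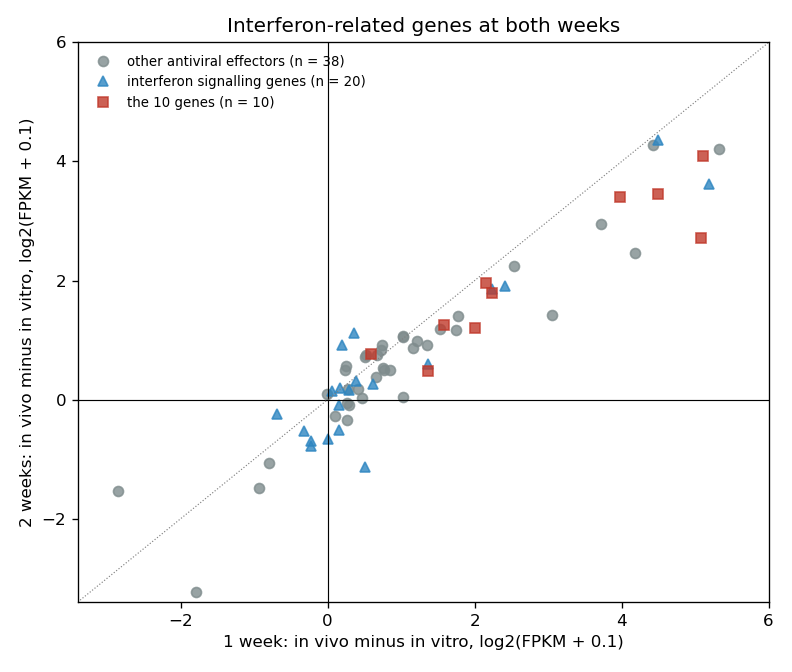
*In vivo* minus *in vitro* difference on the log2(FPKM + 0.1) scale at 1 week (horizontal) and 2 weeks (vertical) for the 10 genes, 38 other antiviral effectors and 20 interferon signalling genes that passed the filter. Points under the dotted line of equal values had a lower *in vivo* minus *in vitro* value at 2 weeks than at 1 week. For genes above 0 at both weeks this is a smaller difference, which holds for 9 of the 10 genes. For genes below 0 it is a larger one, as for the lowest point, *Ch25h*, at -1.79 and -3.23.

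Protein-coding genes within 50 kb of a member showed mixed patterns. *Cmpk2*, an interferon-induced nucleotide kinase gene 12752 bases from *Rsad2*, also stood on the effector list. It measured 5.36 and 3.28 FPKM *in vivo* against 0.187 and 0.273 FPKM *in vitro* at 1 week, with a log2 difference of 3.71 ± 0.41, and of 2.96 ± 0.41 at 2 weeks. *Rnf144a*, on the other side of *Rsad2*, measured 2.92 to 4.88 FPKM *in vivo* and 1.63 to 1.98 FPKM *in vitro*. In the *Ifit* cluster, *Ifit1bl1*, *Ifit1bl2* and *Slc16a12* reached at most 0.582, 0.278 and 0.9751 FPKM, and *Lipa*, a lysosomal lipase gene, measured 53.9 to 76.4 FPKM *in vivo* and 113 to 150 FPKM *in vitro*. Beside *Mx1* and *Mx2*, *Bace2* measured 9.19 to 14.8 FPKM *in vivo* and 4.19 to 8.46 FPKM *in vitro*, and *Fam3b* and *Tmprss2* reached at most 0.0358 and 0.0841 FPKM. Beside *Ifitm3*, *Ifitm1* and *Ifitm6* were at most 3.83 and 5.03 FPKM, both in culture, and *Gm17387* was at 0. *Aen*, 2215 bases from *Isg20*, measured 4.81 to 6.87 FPKM *in vivo* and 8.47 to 9.80 FPKM *in vitro*.

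Around *Bst2*, the endothelial gene *Plvap* measured 21.3 to 30.8 FPKM *in vivo* and 2.39 to 6.95 FPKM *in vitro*, so it was higher in the heart as *Bst2* was. The nearest gene, *Mvb12a*, measured 10.3 to 12.3 FPKM *in vivo* and 8.88 to 11.2 FPKM *in vitro*, with overlap. *Slc27a1* (6.83 to 8.80 FPKM *in vivo*, 8.02 to 11.1 *in vitro*), *Gtpbp3* (5.40 to 6.21 and 3.66 to 4.63) and *Ano8* (5.41 to 6.67 and 4.75 to 5.46) were at intermediate levels, and *Tmem221*, *Ccdc194* and *Nxnl1* reached at most 3.90, 0.278 and 0.0736 FPKM.

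Over the 8 libraries, the genes whose log2 profile was most like the mean profile of the 10 members, among 13096 protein-coding candidates, were *Oas2* (Pearson r = 0.999), *Ifi44* (0.999), *Ifi203* (0.998), *Kcne1l* (0.996) and *Irf7* (0.996). These correlations are descriptions, since the libraries fall into groups. *Oas2*, which encodes a sensor of double-stranded RNA, measured 13.6 and 6.24 FPKM *in vivo* at 1 week, 3.44 and 2.38 FPKM at 2 weeks and at most 0.0146 FPKM in culture. *Kcne1l*, a potassium channel subunit gene with no place on the antiviral lists, measured 3.54 and 2.09 FPKM *in vivo* at 1 week, 1.26 and 1.12 FPKM at 2 weeks and at most 0.0477 FPKM in culture. Each member's own r with the mean profile, which contains it, ran from 0.825 in *Ifit2* upward.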

How the data were processed

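RNA was sequenced from eGFP+ cells of 8 libraries, 2 in each of 4 groups set by the labels. The deposited FPKM per gene were made by the authors' sequencing provider; the submitters' processing notes name CASAVA, HISAT2 2.0.5 and mm10, and the counting tool is not given in the sources used here. Of 54409 identifiers shared with GENCODE vM21, 98.3% had the same coordinates, all 10 members among them. FPKM times gene length came out as whole multiples of 1 step for 100% of values (tolerance 0.01), which gave the fragments per gene. Fragment counts and floors of 3 fragments cover counting error only.

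Values were compared as log2(FPKM + 0.1), which understates the change of low genes, with limma 3.58.1 in R 4.3.3, using 1 coefficient per group, all 8 libraries and a trend of the variance with intensity. The 15708 genes that reached 0.5 FPKM in 2 or more libraries were tested, and p-values were adjusted over all of them by the Benjamini-Hochberg method. Calls needed an adjusted p under 0.01 together with a log2 difference beyond 1 in either direction. The study's P and fold cutoffs have these values, the adjustment was added here, and its DESeq2 needs counts and was not repeated. The fit was tested on simulated data.

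The members, gene lists, motifs and tests were chosen with earlier results of these data known. The text names the 10 members, the 3 largest calls at 1 week of each list, *Stat2*, *Irf9*, *Ifnar1*, *Ifnar2* and *Ifnb1*, protein-coding neighbours within 50 kb and the 5 genes most alike in profile; *Ch25h*, *Ifitm6*, *Irf1*, the interferon alpha genes, 3 macrophage markers, and list genes named for the filter or the scaling were added after their values were seen. Some items of these lists are not reported here. Python 3.11.15, numpy 2.4.6, pandas 2.3.3 and matplotlib 3.10.9 prepared values and figures.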

Additional observations from a re-analysis of the deposited data

Results flagged for a closer look

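None of the 10 genes had a difference between heart and culture that was called as different between the weeks. Among the effector and signalling lists described beside them, 2 genes were called by limma in the interaction contrast. For *Ch25h* the *in vivo* minus *in vitro* difference was lower at 2 weeks than at 1 week on the log2 scale (-1.44 ± 0.12, adjusted p = 0.00338). Its level went from 51.2 and 55.9 FPKM to 102 and 104 FPKM in culture (log2 difference 0.94 ± 0.09) and from 16.4 and 14.4 FPKM to 11.4 and 10.3 FPKM *in vivo* (-0.50 ± 0.09). For *Irf1* it was -1.64 ± 0.14 (adjusted p = 0.00338), with the rise in culture given above, and both *in vivo* libraries at 2 weeks (35.0 and 29.0 FPKM) lay below those of 1 week (41.1 and 39.6 FPKM). Both calls rest on the settings. In alternatives chosen after seeing the data, *Ch25h* was not called with any of the 8 libraries left out, and *Irf1* was called only without either 2-week heart library (adjusted p = 0.00811 without the first and 0.00666 without the second), while both kept their direction throughout. Neither was called without the intensity trend, nor with the replicate number as a block in the limma fit (adjusted p = 0.0109 for both). The macrophage marker sum of the cultures was 5518 and 6277 FPKM at 1 week and 5180 and 6355 FPKM at 2 weeks, and its part in these results was not tested.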

How the results depend on the processing

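The 10 genes were recomputed under 12 other settings and with each of the 8 libraries left out. The number called higher *in vivo* at 1 week was 9 under every setting except for protein-coding genes only, which leaves out *Mx2* by definition and gave 8. At 2 weeks it was between 6 and 8. It was 6 without the deposited scaling (*Ifitm3* 0.88 and *Isg20* 0.93 on the log2 scale), 7 after quantile normalization (*Ifitm3* 0.80) and 7 with the libraries of that week alone (*Rsad2*, adjusted p = 0.0172), and the causes were not tested. Without the scaling the median of all genes was -0.34 at 1 week and -0.32 at 2 weeks, and 906 genes were called higher and 1558 lower at 1 week (1224 and 796 with it) and 1032 and 2087 at 2 weeks (1417 and 1265 with it). The count of genes changed between weeks *in vivo* was 1, *Rsad2*, with a pseudocount of 1, with protein-coding genes only, with limma voom and at an adjusted p under 0.05, and in the last setting the interaction also called 1, *Rsad2*. Deviations of the first replicates from their group means were close to uncorrelated between heart and culture (-0.020 at 1 week and -0.022 at 2 weeks). This cannot show whether the samples were paired by cell batch. With the replicate number as a block the counts were 9 at 1 week, 8 at 2 weeks and 0 in the other comparisons. Under the block the interaction calls of *Ch25h* and *Irf1* were lost (adjusted p = 0.0109 for both), and over all genes the interaction called 11 higher and 16 lower, against 90 and 181 without it. With a library left out, which leaves its group with 1 sample assumed to vary like the others, no call at either week was lost. Small differences turned sign there. Between weeks in culture, *Ifit1* ran from -0.031 (without the second 1-week culture library) to 0.52, *Mx2* from -0.087 (without the second 2-week culture library) to 0.46, and *Isg20* from -0.067 (without the first 2-week culture library) to 0.15, and *Isg20* was -0.00764 without the scaling. The *Ifit3* difference between weeks ran from -0.43 to 0.022, the latter without the first 1-week heart library. Over all 965 recomputed values, 950 neither turned sign nor changed their side of the threshold. This count includes an *Mx1* value of 0 between weeks in culture, which has no direction. Many of the 965 repeat the main estimate and could not turn sign. Some settings change only the p-value, and leaving out a library of a group outside the comparison leaves the estimate as it was. Fitted differences of *Mx1*, *Mx2* and *Rsad2* depend on the pseudocount, since their culture levels rest on few fragments, and at 1 week the *Mx1* value ran from 2.13 to 8.58.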
